A study of Homo sapiens with 9 samples.

Results

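The comparison of PR1 with parental LC-2/ad cells set 6 of the 9 libraries of the study against each other, 3 from each side. They were chosen by the labels of the libraries and not by any measured value. LC-2/ad is an established line of human lung adenocarcinoma, and it expresses the fusion kinase CCDC6-RET. PR1 is a derivative resistant to ponatinib, an inhibitor of RET and of several other kinases, and per the labels it was kept in 200 nM ponatinib. The labels name no drug for parental cells, so an effect of resistance and an effect of the drug on the day of harvest cannot be told apart. PR1 is a single derivative, and the labels do not say whether it is a clone or whether A, B and C are separate cultures, so every p-value measures the spread between libraries, which may be technical. PR2, another derivative kept in 200 nM ponatinib (3 libraries), also entered the filter and the spread behind every standard error and adjusted p. It appears below where its values show how PR1 differs from it.

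RET is a receptor tyrosine kinase for ligands of the glial cell line-derived neurotrophic factor family. In a fusion such as CCDC6-RET its kinase domain is joined to a partner that lets it dimerise without a ligand, and it then drives the RAS-MAPK and PI3K pathways. Tumour cells under kinase inhibitors can come to rely on other receptors, among them AXL, whose ligand is GAS6. YAP and TAZ are co-activators that bind the TEAD transcription factors and respond to cell shape and adhesion. AXL, CYR61, CTGF and ANKRD1 are among the genes they are known to activate.

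RNA levels were measured as FPKM, fragments scaled to the length of the transcript and to the size of the library, which compares genes per unit of length. The libraries had 11263 to 11629 rows at 1 FPKM or more, and their depths relative to parental A ranged from 0.757 to 1.01. Log2(FPKM + 1) values correlated across rows at 0.964 to 0.976 within parental cells, at 0.97 to 0.977 within PR1 and at 0.92 to 0.949 between them. The first principal component of the 6 libraries (56.3% of the variance) separated PR1 (26.7 to 38.3) from parental cells (-39.9 to -18.8), with parental A nearest to PR1. The second (17.1%) set the A libraries of both groups (28.6 and 21.0) apart from the others. Summed epithelial markers came to 5640 to 6120 FPKM in parental cells and 5100 to 6620 in PR1. Summed fibroblast markers came to 5.8 to 11.6 and 6.33 to 9.04 FPKM, and none of the blood, endothelial or neuroendocrine markers passed 9.09 FPKM in the 6 libraries.

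Of the 24069 rows, 12011 reached 1 FPKM in at least 3 libraries and were tested. PR1 differed from parental cells in 1866 rows (15.5%) at a limma adjusted p under 0.05, with 908 higher in PR1 (7.56%) and 958 lower (7.98%). A difference of 2-fold or more on the log2(FPKM + 1) scale was found in 801 of them, of which 364 were higher and 437 lower. The median difference of all tested rows was 0.047 on the log2 scale. The 6 libraries did not overlap in 3791 rows (31.6%), among them 1854 of the 1866 called rows. With the letter as a block the count was 3088, of which 1611 were higher (13.4%) and 1477 lower (12.3%), and all 1866 stayed among them. Without parental B it was 1166 and without PR1 C 1141. In the fits that each left out 1 of the 6 libraries, 923 of the 1866 rows were called every time. Where a call below was lost in such a fit, the library named is the one whose absence gave the highest adjusted p. Parental A was the highest parental library in 58.3% of the rows that rose, against 39.7% of all rows, and the lowest in 47.7% of those that fell, against 29.3% of all rows. List counts below, with or without the block, are to be read beside the shares of all rows given here. The lists were chosen with earlier results of these data known, so their counts are descriptions and not tests.

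**Figure D1:**
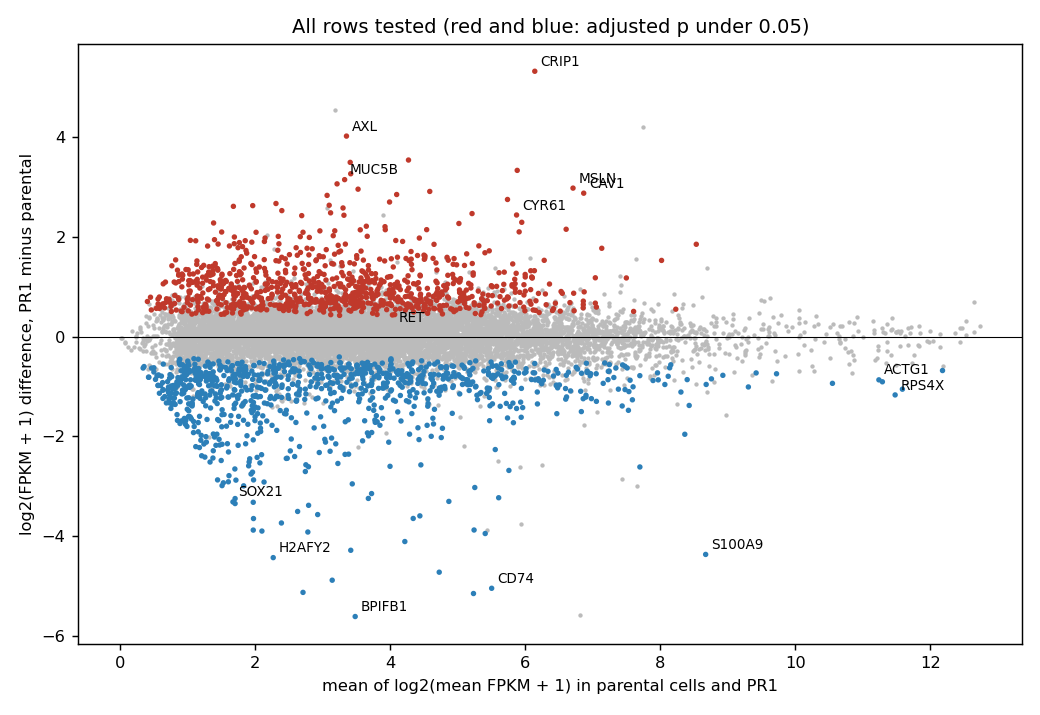
Difference between PR1 and parental cells on the log2(FPKM + 1) scale (vertical axis) against the mean of the log2(mean FPKM + 1) of both groups (horizontal axis), with 1 point for each of the 12011 rows tested. Red and blue points are the 908 rows higher and the 958 rows lower in PR1 at an adjusted p under 0.05, and CRIP1 is the highest and BPIFB1 the lowest of the called points.

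CRIP1, a small protein with a single LIM zinc-binding domain, had the largest rise among called rows. It measured 14.3, 9.84 and 6.15 FPKM in parental A, B and C and 647, 418 and 277 FPKM in PR1 A, B and C. The lowest PR1 library was far above the highest parental one, and the difference was 5.32 ± 0.32 on the log2 scale (SE, adjusted p = 6.47e-06). CRIP2, its relative with 2 LIM domains, measured 5.59, 5.05 and 3.30 FPKM in parental cells and 68.6, 77.6 and 48.3 FPKM in PR1, a difference of 3.54 ± 0.23 (adjusted p = 1.15e-05). Of 14 small LIM-domain genes 13 were tested, 6 rose and none fell (46.2%, against 15.5% of all rows). Their median difference was 0.27 against 0.047 for all rows. Without the 3 A libraries, a fit chosen after the data were seen, 6 of them rose and 2 fell. CSRP1, an actin-binding LIM protein, rose from 31.4, 34.9 and 37.5 FPKM to 82.1, 71.6 and 64.6 FPKM. FHL1, a LIM-only protein of muscle and other tissues, rose from 0.270, 0.376 and 0.237 FPKM to 3.87, 4.59 and 2.46 FPKM. These 4 rises were called in every fit that left out a library. PDLIM2 (adjusted p = 0.0874 without parental B) and PDLIM5 (0.0972 without PR1 C) were not.

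Among the other large rises, MARVELD1, a membrane protein with a MARVEL domain, had a narrow spread in parental cells. It stood at 2.17, 2.13 and 2.27 FPKM there and at 31.0, 24.2 and 22.4 FPKM in PR1 (difference 3.06 ± 0.16, adjusted p = 2.92e-06). MSLN, which codes for the surface protein mesothelin, had 35.8, 34.2 and 37.1 FPKM in parental cells and 390.4, 278 and 219 FPKM in PR1. The groups were well apart for both genes, and MSLN differed by 2.98 ± 0.22 (adjusted p = 2.95e-05). MUC5B, a gel-forming airway mucin, had 1.09, 4.10 and 2.07 FPKM in parental cells and 20.9, 25.2 and 38.7 FPKM in PR1 (3.15 ± 0.31, adjusted p = 0.000169). Each of these genes was lower in every parental library than in any PR1 library, a condition of the rule that chose them.

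**Figure D2:**
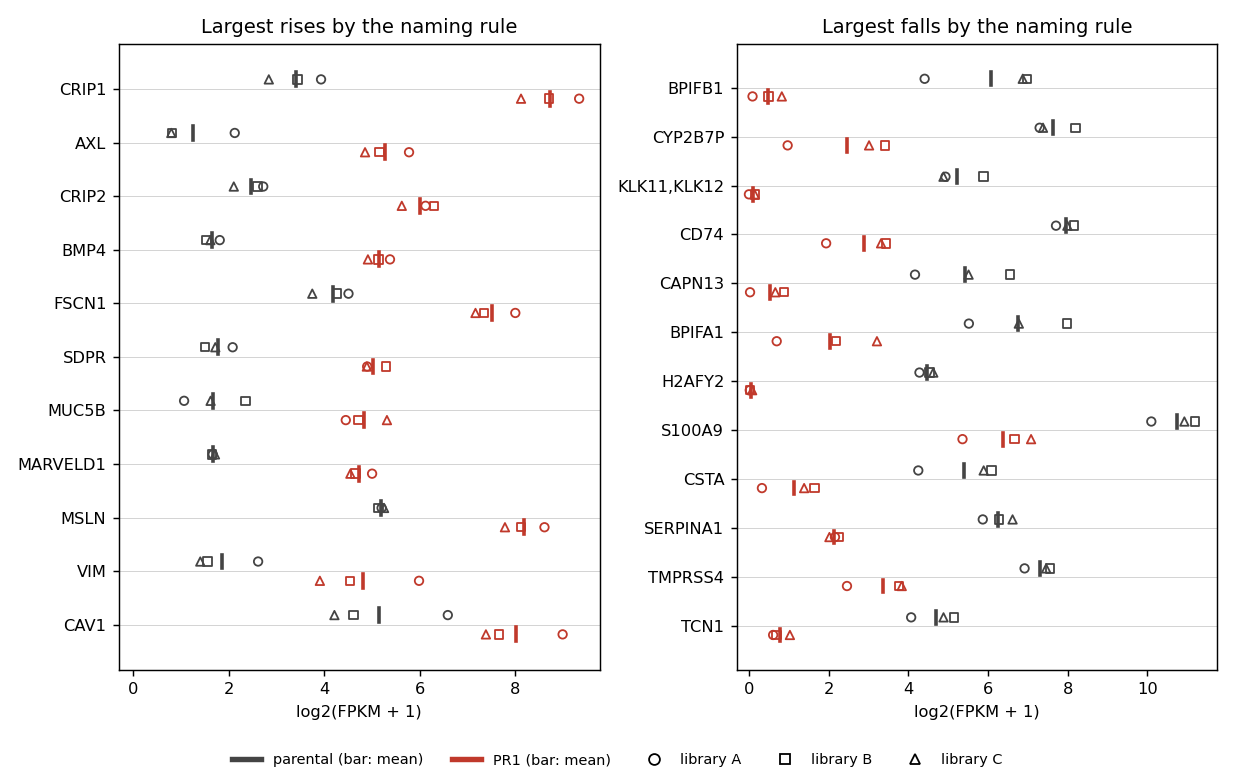
Log2(FPKM + 1) in each library (horizontal axis) for 11 of the 12 largest rises and the 12 largest falls chosen by the naming rule, with circles, squares and triangles for libraries A, B and C and bars for the group means. For each gene the 3 PR1 libraries lie on the same side of the 3 parental libraries, which the rule required. CRIP1 lies at 277 to 647 FPKM in PR1 against 6.15 to 14.3 FPKM in parental cells.

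The kinase that carries the fusion was not among the called genes. RET measured 13.1, 14.8 and 15.7 FPKM in parental cells and 17.1, 15.9 and 16.8 FPKM in PR1. The PR1 values all lay above the parental ones, but the difference was 0.18 ± 0.13 and was not called (adjusted p = 0.418). CCDC6, the fusion partner, had 17.1, 10.8 and 16.7 FPKM in parental cells and 14.6, 13.9 and 18.1 FPKM in PR1, and these overlapped (adjusted p = 0.826). The table gives 1 value per gene, so fusion and normal transcripts of RET and CCDC6 are not separated.

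AXL was the receptor with the largest rise of the 23 receptor tyrosine kinases tested of 29. It measured 3.36, 0.748 and 0.734 FPKM in parental cells and 53.8, 34.7 and 27.9 FPKM in PR1 (4.02 ± 0.37, adjusted p = 0.00012). Parental A stood above parental B and C, though still far below every PR1 library. Receptors that rose numbered 5 and those that fell 2 (30.4%, against 15.5% of all rows). The median over the 23 was 0.18 on the log2 scale. Leaving out each library in turn kept 3 of these rises and 1 of the falls every time, and the letter block gave 7 rises and 4 falls. EGFR, the epidermal growth factor receptor, rose from 9.78, 7.24 and 7.80 FPKM to 17.1, 14.5 and 15.5 FPKM (0.86 ± 0.17, adjusted p = 0.00882). FGFR1, a fibroblast growth factor receptor, rose from 0.686, 0.873 and 0.541 FPKM to 2.46, 1.63 and 1.48 FPKM, which is a low level in all 6 libraries. INSR, the insulin receptor, fell from 3.66, 4.56 and 2.96 FPKM to 0.437, 1.09 and 0.605 FPKM (-1.47 ± 0.23, adjusted p = 0.00221). MET, the hepatocyte growth factor receptor and among the more abundant of these kinases, had 110.2, 66.7 and 84.9 FPKM in parental cells and 97.9, 108 and 124 FPKM in PR1. The MET values overlapped and their difference of 0.36 ± 0.21 was not called (adjusted p = 0.285).

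Of 23 genes for receptor ligands 17 were tested, 5 rose and 1 fell (35.3%, against 15.5% of all rows), with a median of 0.68. GAS6, the ligand of AXL, rose from 3.99, 2.01 and 2.07 FPKM to 19.8, 17.3 and 8.92 FPKM (2.12 ± 0.34, adjusted p = 0.00278). ARTN, a ligand of the RET co-receptor system, rose from 0.441, 0.492 and 0.558 FPKM to 2.16, 1.89 and 1.24 FPKM, and PDGFC, a platelet-derived growth factor, from 7.45, 7.32 and 8.82 FPKM to 13.7, 17.0 and 18.6 FPKM. The fall was that of EGF, an EGFR ligand, from 1.98, 2.00 and 1.62 FPKM to 0.327, 0.397 and 0.543 FPKM (-1.01 ± 0.15, adjusted p = 0.0017). None of these 4 genes overlapped between the groups, and neither did 31.6% of all rows. Of the 5 rises 3 were called in every fit without 1 library, and the letter block gave 7 rises and 3 falls.

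Of 18 tested genes of 19 that report MAPK signalling, 1 rose and 2 fell (16.7%, against 15.5% of all rows), with a median of -0.060. None of the 3 was called in every fit that left out a library, and the letter block gave 4 rises and 3 falls. DUSP6, a phosphatase that switches ERK off and is itself induced by ERK, had 104, 148 and 191 FPKM in parental cells and 44.5, 62.5 and 82.7 FPKM in PR1. It fell by 1.21 on the log2 scale (SE 0.35, adjusted p = 0.0403). The lowest parental library stood above the highest PR1 library, and the call was lost without parental C (adjusted p = 0.138). SPRY2 was the member that rose, from 12.4, 17.4 and 24.2 FPKM to 25.6, 31.9 and 36.7 FPKM (0.80 ± 0.23, adjusted p = 0.04). The other fall was that of SPRY4 (-0.61 ± 0.18, adjusted p = 0.0465). HRAS, which relays receptor signals to MAPK, was not called, with a difference of -0.10 (adjusted p = 0.872).

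The list of 23 YAP and TEAD targets, all tested, held 14 genes that rose and 1 that fell (65.2%, against 15.5% of all rows). Its median difference was 0.98, against 0.047 for all rows. Of its 23 members 17 did not overlap between the groups, against 31.6% of all rows. CYR61 and CTGF, secreted matrix-associated proteins, are commonly used reporters of YAP. CYR61 measured 35.8, 11.4 and 28 FPKM in parental cells and 116, 104 and 171 FPKM in PR1 (2.44 ± 0.41, adjusted p = 0.00327). CTGF measured 29.5, 4.68 and 27.4 FPKM in parental cells and 88.9, 70.0 and 234 FPKM in PR1, a difference of 2.75 ± 0.73 (adjusted p = 0.0311). Parental B was the lowest parental library for both, and the CTGF call was lost without PR1 C (adjusted p = 0.117). ANKRD1, a nuclear ankyrin-repeat protein, measured 11.7, 2.88 and 2.93 FPKM in parental cells and 51.0, 41.8 and 31.7 FPKM in PR1 (2.85 ± 0.41, adjusted p = 0.0015). NT5E, the ectonucleotidase CD73, measured 26.0, 21.3 and 33.8 FPKM in parental cells and 126, 153 and 125 FPKM in PR1 (2.29 ± 0.20, adjusted p = 8.51e-05). DLC1, a GTPase-activating protein, had 0.624, 0.304 and 0.383 FPKM in parental cells and 3.99, 3.96 and 4.59 FPKM in PR1. PTPN14, a phosphatase that restrains YAP, had 1.80, 0.962 and 1.27 FPKM in parental cells and 5.06, 4.76 and 6.22 FPKM in PR1. FOXF2, a forkhead transcription factor, went the other way, from 1.42, 1.5 and 1.42 FPKM to 0.125, 0.165 and 0.267 FPKM (-1.05 ± 0.12, adjusted p = 0.000342). In the fits without 1 library, 9 to 16 members rose, and 9 of the 14 were called every time.

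Of the regulators of these targets, YAP1 was called and TEAD1 and WWTR1 were not. YAP1 measured 49.7, 29.4 and 38.9 FPKM in parental cells and 58.7, 57.1 and 79.4 FPKM in PR1, a rise of 0.73 ± 0.21 (adjusted p = 0.039) that was lost without PR1 C (adjusted p = 0.139). TEAD1 overlapped between the groups, with 15.3, 7.80 and 12.7 FPKM against 17.4, 15.1 and 22.8 FPKM (0.62 ± 0.27, adjusted p = 0.161), and was called with the letter as a block (adjusted p = 0.0261). WWTR1, the gene of TAZ, was not called (-0.21 ± 0.15, adjusted p = 0.402).

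The promoters of 3 genes that rose are printed, because the TEAD factors bind the letters CATTCC or, on the other strand, GGAATG. These were searched in the 250 bases before each start site, and the promoter of the most upstream start listed is printed. The sequences and coordinates are RefSeq's on GRCh38.p14, whereas the expression table was made on an earlier build. Each is written 5′ to 3′ on the gene's own strand with matches in capitals. ANKRD1 lies at chr10:90921088-90921337, CTGF (now CCN2) at chr6:131951373-131951622 and PTPN14 at chr1:214551603-214551852, all on the minus strand.
ANKRD1: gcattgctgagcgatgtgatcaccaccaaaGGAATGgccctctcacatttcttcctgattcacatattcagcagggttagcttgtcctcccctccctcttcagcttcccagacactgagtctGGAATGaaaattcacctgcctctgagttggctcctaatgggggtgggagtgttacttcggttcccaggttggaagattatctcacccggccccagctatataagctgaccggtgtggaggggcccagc
CTGF: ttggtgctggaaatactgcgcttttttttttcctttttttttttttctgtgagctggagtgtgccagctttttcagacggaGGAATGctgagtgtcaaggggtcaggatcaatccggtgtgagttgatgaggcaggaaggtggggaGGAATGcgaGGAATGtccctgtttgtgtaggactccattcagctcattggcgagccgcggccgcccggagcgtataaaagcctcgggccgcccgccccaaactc
PTPN14: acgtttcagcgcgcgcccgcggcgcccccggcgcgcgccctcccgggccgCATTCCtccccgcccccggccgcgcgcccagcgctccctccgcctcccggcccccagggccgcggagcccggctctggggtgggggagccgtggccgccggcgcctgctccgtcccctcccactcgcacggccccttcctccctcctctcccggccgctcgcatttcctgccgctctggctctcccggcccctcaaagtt
The ANKRD1 promoter held 2 matches, starting 220 and 128 bases before the start site. The CTGF promoter held 3, at 169, 104 and 95 bases before it, and the PTPN14 promoter 1. A promoter was matched for 10 of the 14 targets that rose, and 5 of them held the letters, against 4 of 7 for the other members and 11.9% of the 35116 promoters or 14.3% of the 27305 genes in the table. A gene with several listed promoters was counted if any of them matched. The members were listed as targets of these factors to begin with, and a match is a string of letters and not a measured site.

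Actin-bundling and contractile genes gave 5 rises and 1 fall among 19 tested of 22 (31.6%, against 15.5% of all rows). Their median was 0.16. With the letter as a block 7 rose and 3 fell, and leaving out each library in turn kept 2 of the 5 rises every time. FSCN1, the bundling protein fascin, measured 21.7, 18.2 and 12.4 FPKM in parental cells and 255, 162 and 143 FPKM in PR1 (3.33 ± 0.26, adjusted p = 3.92e-05). PLS3, the bundling protein plastin 3, rose from 128, 63.4 and 73.1 FPKM to 192, 173 and 212 FPKM (1.18 ± 0.25, adjusted p = 0.0102). ACTG1, cytoplasmic gamma actin, was the member that fell, from 3587, 3411 and 2789 FPKM to 2056, 1629 and 1669 FPKM (-0.87 ± 0.18, adjusted p = 0.00902). Its reads are close to those of ACTB and of processed pseudogenes, so its level is uncertain.

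Caveolae, flask-shaped pits of the plasma membrane, are built from caveolins and cavins. CAV1, caveolin 1, measured 95.1, 23.4 and 17.5 FPKM in parental cells and 508, 201 and 166 FPKM in PR1 (2.88 ± 0.58, adjusted p = 0.00882). SDPR, now called cavin 2, measured 3.23, 1.82 and 2.28 FPKM in parental cells and 28.8, 38.3 and 28.7 FPKM in PR1 (3.26 ± 0.21, adjusted p = 9.53e-06). PRKCDBP, now called cavin 3, fell, from 4.66, 0.876 and 0.841 FPKM to 0.200, 0 and 0.0756 FPKM. Its call (-1.31 ± 0.37, adjusted p = 0.0391) was lost without PR1 C (adjusted p = 0.106). For CAV1 and PRKCDBP parental A was the highest library of its group, and the other 4 of the 7 caveolar genes were not called. The called share was 42.9%, against 15.5% of all rows.

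Laminins, the trimers that form the basement membrane, made up most of the rises among integrins and laminins. Of 20 members tested of 24, 8 rose and 1 fell (45%, against 15.5% of all rows), with a median of 0.54. Of the 8 rises, 4 were called in every fit that left out a library. LAMB3 rose from 45.2, 23.0 and 31.9 FPKM to 110, 79.2 and 83.2 FPKM (1.46 ± 0.23, adjusted p = 0.0025). LAMA5 rose from 25.3, 27.6 and 17.9 FPKM to 51.7, 62.3 and 54.1 FPKM (1.23 ± 0.18, adjusted p = 0.0018), and LAMC1 from 17.7, 10.5 and 11.9 FPKM to 35.2, 25.8 and 34.9 FPKM (1.22 ± 0.22, adjusted p = 0.00458). LAMA3, a chain of laminin 332 together with LAMB3, rose by 1.46 ± 0.31 (adjusted p = 0.0115), a call lost without parental B (adjusted p = 0.051). ITGB3, the integrin beta 3 subunit, fell from 7.86, 27.9 and 13.6 FPKM to 0.975, 4.56 and 1.69 FPKM (-2.33 ± 0.53, adjusted p = 0.0149). The A library was the lowest of both groups for ITGB3, and without PR1 C the adjusted p was 0.058.

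The collagens gave 4 rises and 4 falls among 14 tested of 24 (57.1%, against 15.5% of all rows), with a median of 0.089. Of these, 3 rises and 2 falls were called in every fit that left out a library. COL4A2, a basement membrane chain, rose from 6.46, 3.87 and 2.59 FPKM to 23.4, 14.4 and 11.3 FPKM (1.72 ± 0.29, adjusted p = 0.00376). COL17A1, a hemidesmosome protein, rose from 9.90, 3.75 and 3.56 FPKM to 26.5, 14.7 and 18.2 FPKM (1.71 ± 0.33, adjusted p = 0.0071). COL6A2, a chain of the beaded filaments of collagen VI, fell from 3.33, 2.43 and 1.51 FPKM to 0.246, 0.223 and 0.1 FPKM (-1.49 ± 0.27, adjusted p = 0.00549). COL1A1, fibrillar collagen I, was not called and reached at most 8.42 FPKM in the 6 libraries.

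Of 12 genes of mesenchymal state tested of 21, 4 rose and 2 fell (50%, against 15.5% of all rows), with a median of 0.67. VIM, the intermediate filament vimentin, measured 5.12, 1.93 and 1.64 FPKM in parental cells and 62.3, 22.2 and 14 FPKM in PR1 (2.96 ± 0.50, adjusted p = 0.00338). PR1 A was the highest of the PR1 libraries, and all 3 stood above parental cells. S100A4, a calcium-binding protein of motile cells, rose from 229, 305 and 76.3 FPKM to 709.9, 898 and 399 FPKM (1.85 ± 0.51, adjusted p = 0.0367), a call lost without PR1 B (adjusted p = 0.108). Collagen VI chains COL6A1 and COL6A2 were the members that fell. VIM and COL6A2 were called in every fit that left out a library, where 1 to 5 members rose. The other calls (S100A4, FN1, TNC and COL6A1) were lost in at least 1 such fit.

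Epithelial markers gave 2 rises and 1 fall among 19 tested of 20 (15.8%, against 15.5% of all rows) and a median of 0.12. Of these calls 1 rise was kept in every fit that left out a library. CDH1, E-cadherin, had 86.9, 54.5 and 87.3 FPKM in parental cells and 80.0, 96.9 and 113 FPKM in PR1, which overlapped (0.36 ± 0.21, adjusted p = 0.296). CDH3, P-cadherin, rose from 43.5, 41.6 and 32.1 FPKM to 83.9, 82.5 and 79.1 FPKM (1.06 ± 0.20, adjusted p = 0.00573). Keratins, the intermediate filaments of epithelia, included 5 falls and no rise among 13 tested of 18 (38.5%, against 15.5% of all rows). Their median was -0.46. The largest positive difference among them, 1.57, was not called, and without the 3 A libraries 1 keratin rose and 5 fell. KRT23 fell from 4.10, 5.81 and 5.19 FPKM to 0.0343, 0.0747 and 0.0288 FPKM (-2.52 ± 0.13, adjusted p = 2.97e-06). KRT15, a keratin of basal cells, fell from 21.8, 26.9 and 26.6 FPKM to 6.56, 7.38 and 8.13 FPKM (-1.64 ± 0.24, adjusted p = 0.00179). KRT6A, a keratin of stressed squamous epithelium, spread widely, from 53.8, 14.4 and 5.75 FPKM to 1.98, 0.163 and 0.439 FPKM (-3.39 ± 0.62, adjusted p = 0.00549). KRT6A reads can be shared with its near-identical relatives KRT6B and KRT6C. All 5 keratin falls, which also included KRT17 and KRT20, were called in every fit that left out a library.

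**Figure D3:**
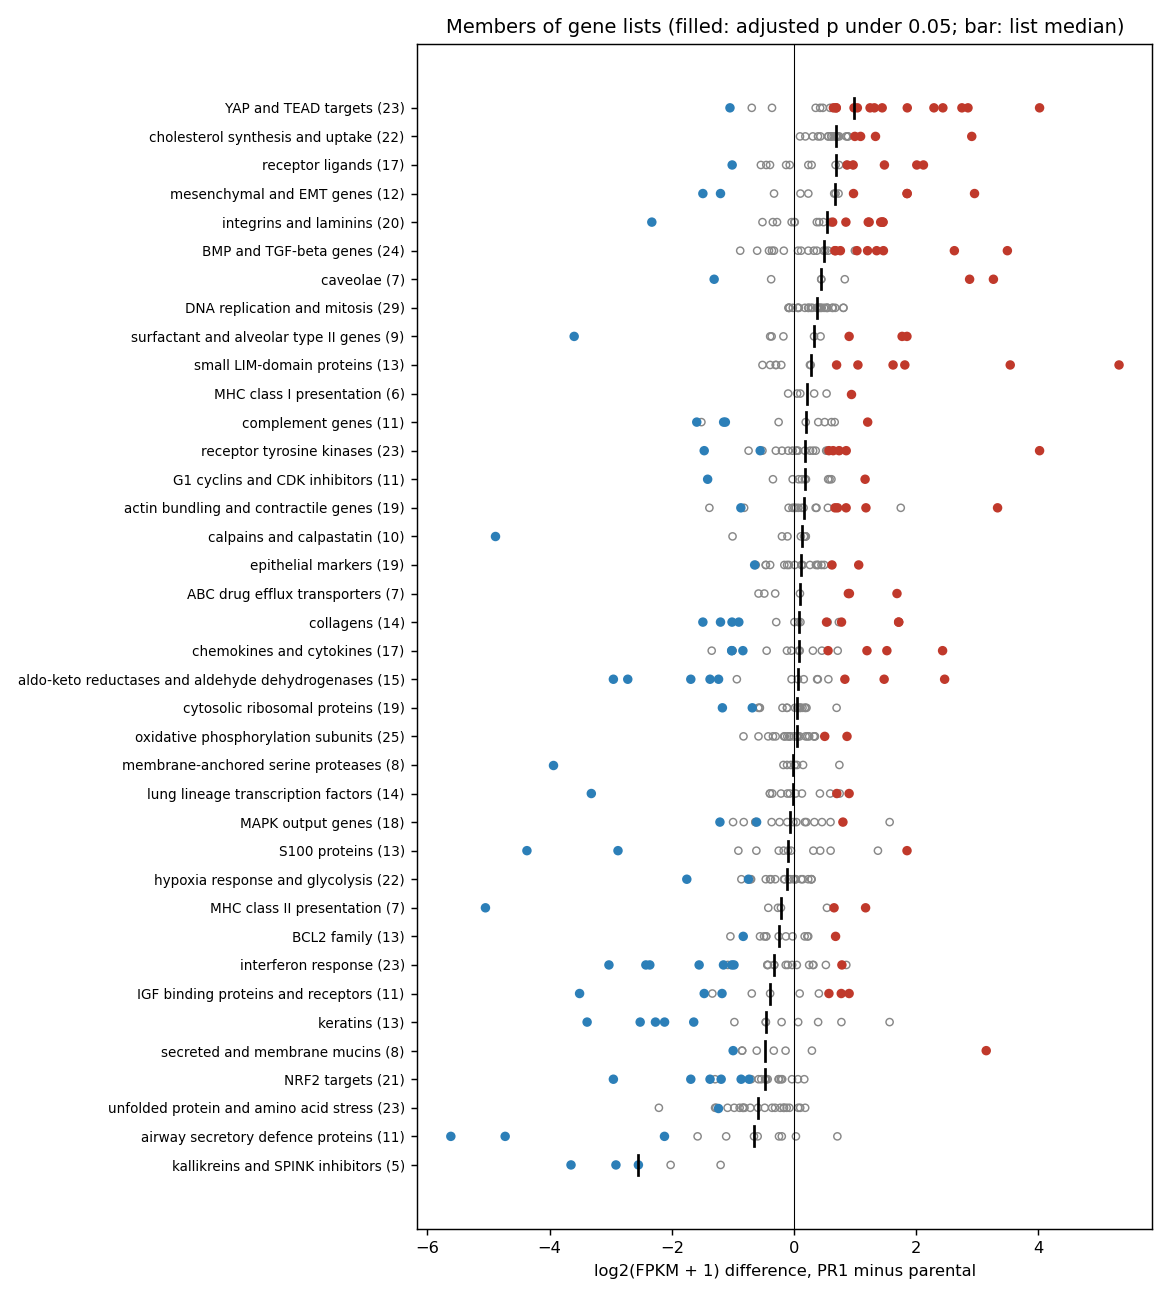
Difference between PR1 and parental cells on the log2(FPKM + 1) scale (horizontal axis) for each tested member of the gene lists with at least 5 tested members, with the number tested in parentheses. Filled red and blue points passed an adjusted p of 0.05, open points did not, and black bars are list medians, which run from 0.98 for YAP and TEAD targets to -2.55 for kallikreins and their inhibitors.

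Bone morphogenetic proteins (BMPs) and the other ligands of the TGF-beta family signal through paired receptor kinases to SMAD proteins, and secreted antagonists hold them back. Of 24 such genes tested of 30, 9 rose and none fell (37.5%, against 15.5% of all rows), with a median of 0.50. Among the ligands, BMP4 measured 2.50, 1.89 and 2.06 FPKM in parental cells and 40.5, 34.3 and 29.1 FPKM in PR1 (3.49 ± 0.17, adjusted p = 1.72e-06). INHBB, a subunit of activin B, rose from 3.47, 2.61 and 3.32 FPKM to 8.24, 9.93 and 10.5 FPKM (1.35 ± 0.16, adjusted p = 0.000612). Among the receptors, TGFBR2 rose from 25.7, 14.2 and 24.6 FPKM to 46.3, 61.2 and 73.2 FPKM (1.46 ± 0.26, adjusted p = 0.00497). Inhibitors of the family were also among the rises. FST, the activin-binding protein follistatin, rose from 0.694, 0.303 and 0.436 FPKM to 16.5, 6.80 and 4.44 FPKM (2.63 ± 0.37, adjusted p = 0.00139). SMAD6, which inhibits BMP signalling inside the cell and is induced by it, rose from 9.09, 5.61 and 7.35 FPKM to 17.7, 18.4 and 17.9 FPKM (1.20 ± 0.17, adjusted p = 0.00154). These 5 rises were called in every fit that left out a library, and the other 4 (BMP2, BMPR1B, BMPR2 and NOG) were not.

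The largest fall among called rows was in a secreted protein of the airway lining. BPIFB1, a bactericidal/permeability-increasing fold protein of airway mucus, measured 20.2, 125 and 116 FPKM in parental cells and 0.0644, 0.401 and 0.771 FPKM in PR1 (-5.62 ± 0.56, adjusted p = 0.000181). BPIFA1, of the same family, measured 44.8, 252 and 108 FPKM in parental cells and 0.621, 3.53 and 8.27 FPKM in PR1 (-4.73 ± 0.65, adjusted p = 0.00129). For both genes the A library was the lowest of each group. Of 20 airway defence genes 11 were tested, 3 fell and none rose (27.3%, against 15.5% of all rows), with a median of -0.66. With the letter as a block 5 fell and 1 rose. The third fall, that of the immunoglobulin transporter PIGR, was lost without parental B (adjusted p = 0.143). S100A9, a subunit of the antimicrobial calprotectin, fell from 1093, 2344 and 1944 FPKM to 40.02, 100.4 and 134 FPKM (-4.37 ± 0.72, adjusted p = 0.00311). Its partner S100A8 fell from 9.41, 13.7 and 2.63 FPKM to 0.231, 0 and 0.129 FPKM (-2.88 ± 0.40, adjusted p = 0.00139).

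Several of the largest falls were in protease and antiprotease genes. SERPINA1, alpha-1 antitrypsin, measured 57.4, 76.7 and 97.0 FPKM in parental cells and 3.46, 3.73 and 3.05 FPKM in PR1 (-4.11 ± 0.40, adjusted p = 0.000162). CSTA, the cysteine protease inhibitor cystatin A, measured 18, 66.8 and 58.3 FPKM and then 0.254, 2.13 and 1.61 FPKM (-4.29 ± 0.46, adjusted p = 0.000304). The combined locus of KLK11 and KLK12, secreted serine proteases whose reads the table does not split, fell from 29.5, 58.1 and 28.5 FPKM to 0, 0.113 and 0.105 FPKM (-5.13 ± 0.25, adjusted p = 1.69e-06). Of 13 kallikrein and SPINK genes, 5 had a tested row of their own, and KLK6, KLK10 and KLK13 fell. The called share was 60%, against 15.5% of all rows. KLK10 fell from 109, 86.7 and 21.4 FPKM to 9.16, 2.52 and 2.05 FPKM (-3.65 ± 0.60, adjusted p = 0.00291). TMPRSS4 was the member called among 8 tested membrane-anchored serine proteases (12.5%, against 15.5% of all rows). It fell from 119.8, 186 and 175 FPKM to 4.50, 12.6 and 13.3 FPKM (-3.95 ± 0.59, adjusted p = 0.00185). CAPN13 was the member called among 10 tested calpain genes (10%, against 15.5% of all rows). It measured 17.0, 92.8 and 44.6 FPKM in parental cells and 0.0193, 0.832 and 0.582 FPKM in PR1 (-4.89 ± 0.48, adjusted p = 0.000169).

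Genes of alveolar type II cells, which make surfactant, changed in both directions. SFTPB, surfactant protein B, fell from 54.3, 144 and 40.6 FPKM to 3.46, 6.01 and 5 FPKM (-3.60 ± 0.38, adjusted p = 0.000267). NAPSA, the aspartic protease that processes surfactant protein B, rose from 9.10, 16.1 and 11.7 FPKM to 41.3, 44.3 and 52.8 FPKM (1.85 ± 0.38, adjusted p = 0.00944). LPCAT1, an enzyme of surfactant lipid synthesis, rose from 91.2, 75.7 and 59.5 FPKM to 253, 264 and 252 FPKM (1.77 ± 0.20, adjusted p = 0.000357). NKX2-1, the transcription factor of lung lineage, had 77.9, 69.1 and 51.9 FPKM in parental cells and 105, 163 and 109 FPKM in PR1. The rise of NKX2-1 was 0.90 ± 0.22 (adjusted p = 0.0195), and it was lost without parental C (adjusted p = 0.0726). SOX21, a transcription factor of the SOX family, had 8.03, 11.4 and 7.82 FPKM in parental cells and was listed at 0 in all 3 PR1 libraries (adjusted p = 1.62e-06). Because some rows at 0 may be failed estimates, no fold is given for SOX21. In all, 3 of 9 alveolar genes tested of 14 rose and 1 fell (44.4%, against 15.5% of all rows). Of 14 lineage factors tested of 17, 2 rose and 1 fell (21.4%). Both lineage rises and 1 of the 3 alveolar rises were lost in at least 1 fit without a library.

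The remaining large falls had no list in common. CYP2B7P, a pseudogene close in sequence to CYP2B6, fell from 156, 291 and 165 FPKM to 0.960, 9.62 and 7.08 FPKM (-5.16 ± 0.58, adjusted p = 0.000378), and its reads may come from either gene. H2AFY2, the histone variant macroH2A2, measured 18.4, 22.2 and 23.7 FPKM in parental cells and 0.0147, 0.0194 and 0.0572 FPKM in PR1. The fall of H2AFY2 was -4.44 ± 0.15 (adjusted p = 5.25e-07). In PR1 its highest library was 3.89 times its lowest, a spread near 0 FPKM that the log2(FPKM + 1) scale flattens. TCN1, a vitamin B12 binding protein, fell from 15.8, 34.4 and 28.5 FPKM to 0.523, 0.620 and 1.04 FPKM (-3.92 ± 0.30, adjusted p = 3.37e-05).

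CD74, the invariant chain that escorts MHC class II molecules, measured 208, 284 and 253 FPKM in parental cells and 2.83, 9.88 and 8.96 FPKM in PR1 (-5.05 ± 0.36, adjusted p = 2.31e-05). PR1 A was the lowest of the 6 libraries and parental A the lowest of its group. CIITA, the master regulator of class II genes, had 1.19, 1.42 and 1.68 FPKM in parental cells and 0.388, 0.845 and 1.31 FPKM in PR1, and was not called (-0.42 ± 0.18, adjusted p = 0.157). RFX5 and IFI30, the first a class II transcription factor and the second a lysosomal reductase of antigen processing, rose. IFI30 went from 52.2, 49.9 and 32.5 FPKM to 124, 81.5 and 100.04 FPKM (1.17 ± 0.21, adjusted p = 0.00491), and the RFX5 rise was lost without PR1 B (adjusted p = 0.0564). Of 18 class II entries 7 were tested, and 27 of the 32 HLA rows were listed at 0 in all 9 libraries. The combined row HLA-DRB1,HLA-DRB5, left out of the list count, was tested and fell (-3.57 ± 0.30, adjusted p = 6.29e-05). That fall was called in every fit that left out a library. B2M, the class I light chain, was not called (0.53 ± 0.23, adjusted p = 0.158).

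Interferon-response genes gave 7 falls and 1 rise among 23 tested of 30 (34.8%, against 15.5% of all rows), with a median of -0.33. IFI27, a mitochondrial interferon-induced protein, measured 131, 63.7 and 133 FPKM in parental cells and 10.4, 16.4 and 9.66 FPKM in PR1 (-3.03 ± 0.39, adjusted p = 0.000908). MX1, a GTPase that traps viral ribonucleoproteins, measured 8.72, 7.24 and 9.24 FPKM in parental cells and 0.522, 1.16 and 0.609 FPKM in PR1 (-2.42 ± 0.19, adjusted p = 4.56e-05). IFI6, a small membrane protein, measured 31.7, 16.5 and 20.5 FPKM in parental cells and 2.60, 4.25 and 3.80 FPKM in PR1 (-2.36 ± 0.25, adjusted p = 0.000267). The groups were apart for all 3 genes. IFI35, XAF1 and OAS2 also fell and, with the first 3, were called in every fit that left out a library. MX2 fell too but was not called without parental C (adjusted p = 0.125). IFIT3, which binds viral RNA with its IFIT partners, was the member that rose, from 10.1, 6.71 and 8.85 FPKM to 16.1, 13 and 17 FPKM (0.78 ± 0.20, adjusted p = 0.0233), a call lost without PR1 C (adjusted p = 0.0853).

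The promoters of IFI6 and IFI27 are shown because interferon-activated factors bind paired GAAA letters. The pattern GAAANNGAAA and its reverse complement, chosen after the data were seen, were searched in the same window, separately from the TEAD letters. IFI6 lies at chr1:27672193-27672442 on the minus strand and IFI27 at chr14:94110486-94110735 on the plus strand, again from RefSeq on GRCh38.p14, with matches in capitals.
IFI6: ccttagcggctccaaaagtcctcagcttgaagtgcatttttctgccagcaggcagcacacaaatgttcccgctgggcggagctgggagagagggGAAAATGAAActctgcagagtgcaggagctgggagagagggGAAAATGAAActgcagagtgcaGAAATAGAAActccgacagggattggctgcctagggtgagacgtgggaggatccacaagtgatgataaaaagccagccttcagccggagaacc
IFI27: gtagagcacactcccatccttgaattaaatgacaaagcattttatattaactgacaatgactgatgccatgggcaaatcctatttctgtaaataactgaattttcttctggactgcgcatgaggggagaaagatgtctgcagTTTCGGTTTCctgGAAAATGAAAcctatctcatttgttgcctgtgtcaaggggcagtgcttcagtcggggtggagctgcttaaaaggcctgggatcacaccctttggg
The IFI6 promoter held 3 matches, starting 156, 115 and 93 bases before the start site, and the IFI27 promoter 2, at 108 and 95 bases. Among the 7 members that fell a promoter was matched for 5 and the letters were in 3, against 7 of 11 for the other tested members. They were in 3.02% of the 35116 promoters or 3.71% of the 27305 genes in the table. A gene with several listed promoters was counted if any of them matched. The members were listed as interferon-response genes to begin with, and a match is not a measured site.

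Other secreted immune genes changed both ways. Complement genes gave 3 falls and 1 rise among 11 tested of 17 (36.4%, against 15.5% of all rows). Chemokines and cytokines gave 4 rises and 3 falls among 17 tested of 26 (41.2%). C1S, a protease of the first complement component, fell from 1.72, 1.54 and 1.03 FPKM to 0.0644, 0.124 and 0.131 FPKM, and C4BPB, a chain of the C4-binding protein, from 5.12, 9.51 and 5.12 FPKM to 1.92, 1.38 and 1.07 FPKM. CCL28, a mucosal chemokine, rose from 4.06, 2.85 and 2.90 FPKM to 17.9, 22.8 and 25.5 FPKM (2.43 ± 0.26, adjusted p = 0.00029). CCL20, the ligand of CCR6, fell from 1.42, 2.16 and 2.15 FPKM to 0.510, 0.377 and 0.389 FPKM (-1.02 ± 0.14, adjusted p = 0.00123). CCL28 and CCL20 were called in every fit that left out a library, whereas the other 3 rises (CXCL16, IL6 and IL18) and 2 falls (CXCL8 and LIF) were not. Of the complement calls 2 of the 3 falls were kept in every such fit, and the rise was not.

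Enzymes that reduce or oxidise carbonyl compounds changed in both directions. AKR1C2, an aldo-keto reductase, fell from 27.6, 28.7 and 29.8 FPKM to 2.36, 4.35 and 2.12 FPKM (-2.96 ± 0.24, adjusted p = 4.97e-05), and AKR1C3 from 62.0, 90.5 and 81.5 FPKM to 20.8, 32.2 and 18.5 FPKM (-1.69 ± 0.25, adjusted p = 0.00187). Members of the AKR1C family are close in sequence, so the split of reads between them is uncertain. ALDH2, the mitochondrial aldehyde dehydrogenase, rose from 10.03, 20.4 and 14.4 FPKM to 66.8, 98.9 and 89.4 FPKM (2.47 ± 0.24, adjusted p = 0.000169). ALDH3B2, of the same family, fell from 5.81, 10.7 and 10.8 FPKM to 0.327, 0.537 and 0.614 FPKM (-2.72 ± 0.21, adjusted p = 4.05e-05). ALDH1L1, a folate enzyme with an aldehyde dehydrogenase domain that was not on the list, fell from 7.95, 14.5 and 12.2 FPKM to 0.274, 0.209 and 0.18 FPKM (-3.33 ± 0.21, adjusted p = 9.11e-06). The whole list gave 3 rises and 5 falls among 15 tested of 20 (53.3%, against 15.5% of all rows). Targets of NRF2, the factor that switches on antioxidant genes, gave 6 falls and no rise among 21 tested of 22. Their called share was 28.6%, against 15.5% of all rows, and their median was -0.47. Of these falls 3 were the AKR1C genes, and GPX2 and PGD were also among them. Only 2 of the 6, AKR1C2 and AKR1C3, were called in every fit that left out a library.

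All 22 cholesterol genes tested of 24 had a positive difference, with a median of 0.69. Of these, 4 rose in the unpaired fit (18.2%, against 15.5% of all rows called), HMGCS1, LSS and MSMO1 among them. With the letter as a block 11 rose, where 13.4% of all rows rose. Of the 4, 1 was called in every fit that left out a library, where 1 to 7 rose, and without the 3 A libraries 2 rose. The calls of HMGCS1 (adjusted p = 0.141 without PR1 C), LSS (0.0762 without parental C) and MSMO1 (0.116 without parental C) were lost. Efflux transporters of the ABC family, which pump drugs out of cells, gave 3 rises and no fall among 7 tested of 11. Their called share was 42.9%, against 15.5% of all rows. ABCG2 rose from 3, 2.25 and 2.30 FPKM to 7.81, 10.6 and 13 FPKM (1.69 ± 0.21, adjusted p = 0.000759), and ABCC1 from 19.8, 15.8 and 18.4 FPKM to 37.4, 32.4 and 32.7 FPKM (0.89 ± 0.14, adjusted p = 0.0023).

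The insulin-like growth factor list gave 3 rises and 3 falls among 11 tested of 12 (54.5%, against 15.5% of all rows). IGFBP2, a secreted binding protein, fell from 13.7, 21.2 and 25.4 FPKM to 0.751, 0.900 and 0.761 FPKM (-3.51 ± 0.21, adjusted p = 5.35e-06). IGFBP7, another binding protein, fell from 42.3, 48.3 and 27.0 FPKM to 16.2, 18.1 and 14.7 FPKM (-1.18 ± 0.21, adjusted p = 0.00414). The rises, in IGF1R, IRS1 and IRS2, were each lost in at least 1 fit without a library, with adjusted p = 0.15 for IGF1R without PR1 C.

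Stress genes of the unfolded protein and amino acid responses had a median of -0.59 over 23 tested of 24, with 1 fall (VLDLR, from 0.995, 1.5 and 2.2 FPKM to 0.0189, 0.0799 and 0.0870 FPKM). The called share was 4.35%, against 15.5% of all rows. When the 3 A libraries were left out, which was tried after seeing the values, 12 of the stress genes fell. In that fit 1257 of the 12011 rows fell, against 958 in the main fit. Leaving out single libraries gave 1 to 8 falls among the stress genes. Hypoxia and glycolysis genes gave 2 falls among 22 tested of 25 (9.09%, against 15.5% of all rows). With the letter as a block 5 fell, where 12.3% of all rows fell. NDRG1, a stress-responsive gene, fell from 45.6, 38.6 and 49.7 FPKM to 10.5, 15.4 and 12 FPKM (-1.75 ± 0.21, adjusted p = 0.00052).

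None of the 29 tested genes of DNA replication and mitosis was called, with a median of 0.38 on the log2 scale and 2 rises with the letter as a block. MCM7, a subunit of the replicative helicase, had 139, 127 and 122 FPKM in parental cells and 196, 109 and 163 FPKM in PR1, which overlapped (adjusted p = 0.492). G1 cyclins and CDK inhibitors gave 1 rise and 1 fall among 11 tested of 14 (18.2%, against 15.5% of all rows). CDKN1A, the cell-cycle inhibitor p21, fell from 16.6, 10.3 and 12.4 FPKM to 4.66, 2.81 and 5.56 FPKM (-1.41 ± 0.26, adjusted p = 0.00585). CDKN2C rose from 10.3, 8.71 and 4.02 FPKM to 19.9, 14.4 and 18.4 FPKM (1.16 ± 0.32, adjusted p = 0.0334), a call lost without PR1 C (adjusted p = 0.0991). In the BCL2 family, which sets the threshold for apoptosis, the anti-apoptotic BCL2L1 rose from 47.3, 44.9 and 48.1 FPKM to 83.9, 74.5 and 69.0 FPKM (0.68 ± 0.15, adjusted p = 0.0119). That family gave 1 rise and 1 fall among 13 tested of 17 (15.4%, against 15.5% of all rows). With the letter as a block it gave 1 rise and 6 falls, where 13.4% of all rows rose and 12.3% fell.

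The most abundant called rows were all lower in PR1. RPS4X, a ribosomal protein of the small subunit, had 3479, 4462 and 4899 FPKM in parental cells and 1936, 2202 and 1559 FPKM in PR1 (-1.17 ± 0.21, adjusted p = 0.00491). GNB2L1, the ribosome-bound scaffold RACK1, had 3116, 4992 and 5319 FPKM in parental cells and 2142, 2381 and 1802 FPKM in PR1 (-1.06 ± 0.24, adjusted p = 0.0153). The GNB2L1 call was lost without parental B (adjusted p = 0.0678), as were those of RPL8 (0.171) and RPL38 (0.12). Of 19 cytosolic ribosomal protein genes tested of 21, 2 fell (10.5%, against 15.5% of all rows), and the median was 0.052. With the letter as a block 4 fell, where 12.3% of all rows fell. Ribosomal genes have many processed pseudogenes, so their reads may be shared.

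The letters A, B and C marked libraries that deviated together, so the differences were also taken within each letter. Fitting the letter as a block added 1222 rows to the 1866. ALPP, placental alkaline phosphatase, overlapped between the groups, with 12.2, 3.31 and 0.813 FPKM in parental cells and 70.0, 17.9 and 11.1 FPKM in PR1. Within letters A, B and C its differences were 2.42, 2.13 and 2.74 on the log2 scale, and the adjusted p went from 0.0661 to 0.0384 with the block. ALPP reads can be shared with its near-identical relatives. FOSL1, a subunit of the transcription factor AP-1, had 20.9, 7.94 and 14.1 FPKM in parental cells and 99.1, 24.7 and 29.0 FPKM in PR1, with A the highest of both groups. Its differences within letters were 2.19, 1.52 and 0.99, and the adjusted p went from 0.0725 to 0.00136. LOXL4, an enzyme that crosslinks collagen, had 14.3, 34.1 and 35.1 FPKM in parental cells and 2.27, 11.1 and 7.85 FPKM in PR1, with A the lowest of both. Its differences were -2.22, -1.54 and -2.03, and the adjusted p went from 0.0797 to 0.000681. DHRS3, a retinal reductase, LCN2, the siderophore-binding lipocalin 2, and C3, the central complement component, were lower in PR1 in the blocked fit as well (adjusted p = 0.0329, 0.023 and 0.0288).

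**Figure D4:**
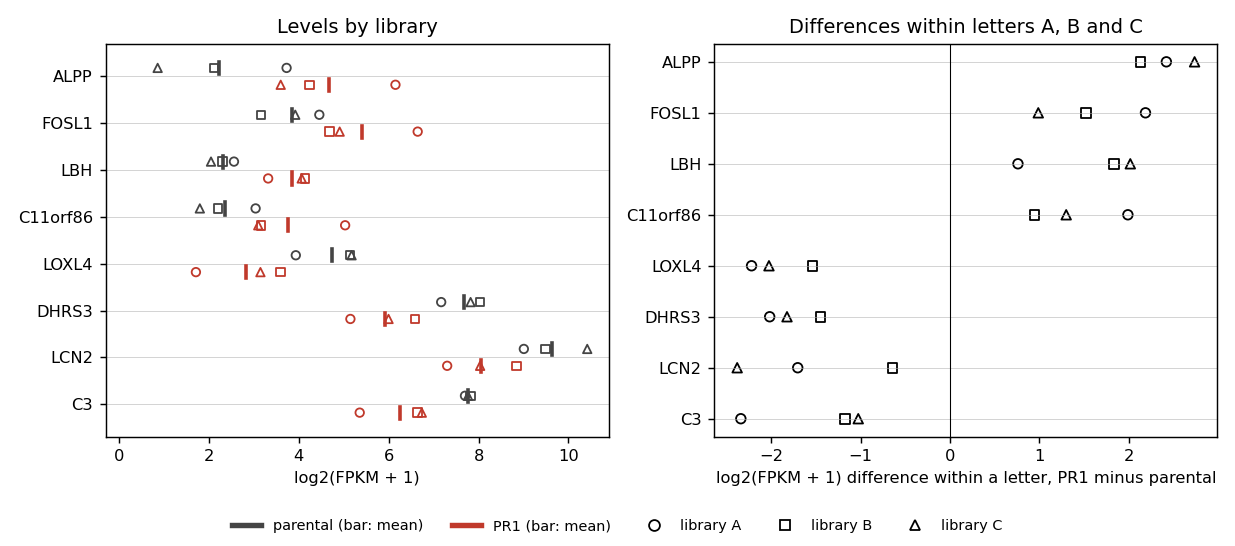
Log2(FPKM + 1) in each library (left) and the difference between the PR1 and parental library of the same letter (right) for the 8 genes named because they were called with the letter as a block and not without it. Circles, squares and triangles are libraries A, B and C, and for each gene the 3 within-letter differences lie on the same side of 0, from 2.13 to 2.74 for ALPP.

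PR1 was set beside PR2 to see which of its differences it did not share. This contrast uses the same PR1 libraries, and the PR1 and PR2 contrasts with parental cells use the same parental libraries, so they are not independent of each other. PR1 differed from PR2 in 2395 of the 12011 rows (19.9%). Rows that differed 2-fold or more from parental cells and, in the same direction, from PR2 numbered 211, of which 99 were higher in PR1 and 112 lower. VIM measured 2.05, 4.24 and 2.21 FPKM in PR2 against 62.3, 22.2 and 14 FPKM in PR1 (2.92 on the log2 scale, adjusted p = 0.00306). MUC5B measured 0.0104, 0.0437 and 0.0561 FPKM in PR2, under every library of parental cells and PR1. CRIP1 measured 175, 185 and 175 FPKM in PR2, between the levels of parental cells and PR1, and the difference between PR1 and PR2 was 1.24 (adjusted p = 0.0233). H2AFY2 measured 13, 17 and 13.9 FPKM in PR2 and was near 0 in PR1 (-3.91, adjusted p = 1.84e-06). CD74 measured 40.9, 67.7 and 48.9 FPKM in PR2, above PR1 and below parental cells (-2.81 for PR1 minus PR2, adjusted p = 0.000639). SERPINA1 measured 16.2, 53.2 and 54.6 FPKM and KLK10 37.2, 61.3 and 56.9 FPKM in PR2. Both stood above every PR1 library, a condition of the rule that chose them.

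**Figure D5:**
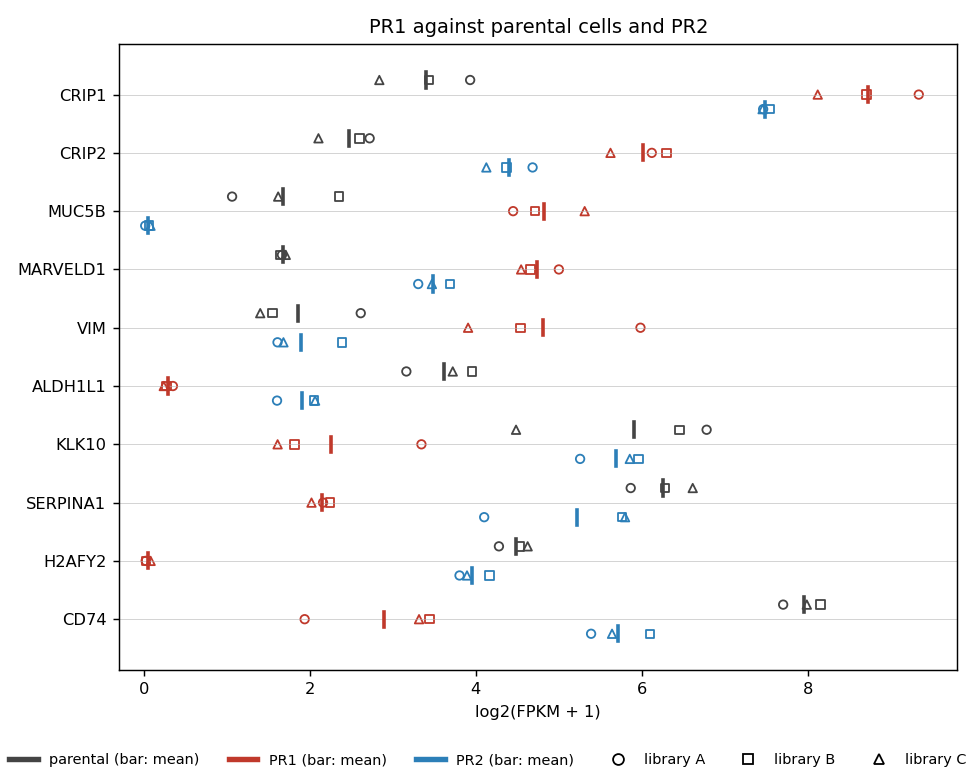
Log2(FPKM + 1) in the parental, PR1 and PR2 libraries for the 5 rises and 5 falls chosen because PR1 differed in the same direction from parental cells and from PR2. Symbols are libraries A, B and C and bars are group means, and VIM lies at 14 to 62.3 FPKM in PR1 against 1.64 to 5.12 FPKM in parental cells and 2.05 to 4.24 FPKM in PR2.

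For the receptor axis the values of PR2 stood elsewhere. AXL measured 106, 68.1 and 70.5 FPKM in PR2, above the PR1 libraries, but PR1 and PR2 did not differ past the threshold (-1.08 ± 0.37, adjusted p = 0.0668). GAS6 measured 28.9, 61.6 and 46.7 FPKM in PR2 and was lower in PR1 (-1.52, adjusted p = 0.0123). RET measured 8.89, 8.95 and 7.66 FPKM in PR2 and was higher in PR1 (0.89, adjusted p = 0.00155). DUSP6 measured 6.29, 5.94 and 14.4 FPKM in PR2 and was higher in PR1 (2.76, adjusted p = 0.00055). CEACAM5, a surface glycoprotein of epithelial tumours, measured 225, 223 and 121 FPKM in parental cells, 39.8, 81.2 and 79.5 FPKM in PR1 and 1.29, 1.58 and 2.64 FPKM in PR2, so that PR1 lay between the others (4.54 for PR1 minus PR2, adjusted p = 2.34e-05). The fall of CEACAM5 against parental cells (-1.51 ± 0.33, adjusted p = 0.0125) was lost without parental B (adjusted p = 0.0534).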

How the data were processed

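RNA was sequenced from 3 parental LC-2/ad, 3 PR1 and 3 PR2 libraries. Tools named in the submitters' processing notes are Cufflinks 2.2.1, Cuffdiff 2.2.1 and TopHat2 2.0.14, with hg19 (GRCh37) as the build. The table deposited by the authors is taken to hold FPKM values. Its header names no unit, so this is an inference from Cufflinks and from steps between low values that scale with gene length. Absolute depth cannot be read from FPKM, and some rows at 0 may be failed estimates. Of its 24069 rows, 704 combine several genes. All 9 value columns matched a label, and 0 were left unused. Annotation and read totals: not given in the sources used here.

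A row was tested if at least 3 of the 9 libraries reached 1 FPKM. The log2(FPKM + 1) values of all 9 libraries went into limma 3.58.1 (R 4.3.3), with a mean for each group and a trend of variance with intensity. Tests were two-sided, with Benjamini-Hochberg adjustment over all 12011 rows, and called rows had an adjusted p under 0.05. A fold change on this scale understates the change of low genes. The procedure was tested on simulated data. Errors of log2 differences are standard errors.

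Letters were checked for pairing by the correlation, across rows, of deviations from group means. It was 0.311 for A, 0.477 for B and 0.163 for C in parental cells and PR1, each library correlated best with its own letter, and the letters were taken as pairs. The labels do not say what a letter stands for.

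The members, the 43 gene lists (792 entries, of which 762 had a row of their own and 591 were tested) and the naming rule were chosen with earlier results of these data known, so list counts are descriptions with no test. The rule took the 12 largest rises and falls among called rows that differed by 1 or more on the log2 scale, did not overlap and had a mean of at least 5 FPKM in the higher group, leaving out LOC, LINC, MIR, SNOR, RNU, RNA5 and antisense symbols. It added each list's called member with the largest rise and fall, or its most abundant member, and a fixed set with RET, AXL, MET, VIM, CD74 and YAP1. It also added 4 rises and 4 falls called only with the block, 5 and 5 that differed from PR2 in the same direction, the 5 most abundant called rows and the 3 named genes with the widest spread in PR1. Further list members were named for their role. Some genes that the rule took are not reported here. Alternatives were the block, the 6 libraries alone, pseudocounts of 0.1 and 5, other filters, quantile and median ratio scaling, no trend and leaving out each library. Promoter sequences came from RefSeq tables of GRCh38.p14.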

Additional observations from a re-analysis of the deposited data

Results flagged for a closer look

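For 4 named genes PR1 and PR2 changed in opposite directions against the same parental libraries, each past the limma threshold, and PR1 differed from PR2. On the log2(FPKM + 1) scale, PR1 minus PR2 was 4.77 for MUC5B (adjusted p = 1.24e-05), 3.86 for S100A4 (adjusted p = 0.000795), 2.56 for the efflux transporter ABCG2 (adjusted p = 5.48e-05) and -2.57 for PRKCDBP (adjusted p = 0.00121). ABCG2 measured 7.81, 10.6 and 13 FPKM in PR1, 3, 2.25 and 2.30 FPKM in parental cells and 1.44, 0.593 and 0.809 FPKM in PR2. S100A4 measured 29.5, 71.6 and 37.0 FPKM in PR2, below every parental library. PRKCDBP measured 4.34, 6.42 and 5.80 FPKM in PR2 and was listed at 0 in PR1 B. In parental A, B and C it measured 4.66, 0.876 and 0.841 FPKM, so parental A lay within the range of PR2. Against parental cells the calls of PRKCDBP (adjusted p = 0.106 without PR1 C) and S100A4 (0.108 without PR1 B) were lost when a library was left out.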

How the results depend on the processing

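With the letter as a replicate block, the 1866 called rows became 3088 (1611 higher, 1477 lower) and the 2395 rows that differed between PR1 and PR2 became 3789. Besides genes given with their blocked value in the report, the block changed the call of ENO2, LBH and C11orf86, from not called to called, and of no named gene in the other direction. A filter at 5 FPKM tested fewer rows and called 1207 (584 lower), 532 of them at 2-fold or more (269 lower), and 1573 between PR1 and PR2. A pseudocount of 5, which shrinks differences of low genes, left 301 rows at 2-fold or more (127 higher, 174 lower). Leaving out 1 library in turn gave 1141 to 1895 called rows, 507 to 935 higher, 625 to 960 lower, and 667 to 969 at 2-fold or more (287 to 449 higher, 359 to 520 lower). Between PR1 and PR2 it gave 1420 to 2227 rows, with 1592 without PR1 B, 1464 without PR2 B and 1420 without PR2 C, the fits without a PR2 library being chosen after the data were seen. The 6 libraries alone gave 1542 rows, of which 1462 were among the 1866. No filter gave 2344, quantile scaling 1994 and median ratio scaling 1885. Without the 3 A libraries, also chosen after the data were seen, 2413 rows were called, of which 1592 were among the 1866. Over the named genes and alternatives, 1432 values stayed in direction and on the same side of the threshold, 60 lost a call and 38 gained one. The other 7 changed sign in genes that were never called. COX4I1 went to -0.14 without the A libraries, and leaving out single libraries moved it from -0.074 to 0.24, COL1A1 from -0.21 to 0.27, CCDC6 from -0.12 to 0.19 and HRAS from -0.35 to 0.075. The cause of these changes was not tested. Absolute depth is unknown from FPKM values, which limits what a low or 0 value can show.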

Other observations

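Genes outside the lists, and a combined row that the list counts leave out, add further groups. All were chosen after their values were seen. STRA6 and DHRS9 act on retinoids and were lower in PR1. STRA6, the membrane receptor that takes up retinol, had 8.28, 19.3 and 21.8 FPKM in parental cells and 0.884, 2.40 and 1.39 FPKM in PR1. DHRS9, a retinol dehydrogenase, went from 126, 187 and 108 FPKM to 4.21, 9.71 and 13.5 FPKM. Parental A was the lowest parental library for STRA6, and PR1 A the lowest PR1 library for STRA6 and DHRS9.

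Several secreted or surface proteins moved by a large amount. GDF15, a stress-induced cytokine, had 142, 586 and 927 FPKM in parental cells and 33.1, 104 and 93.2 FPKM in PR1. Its limma call (adjusted p = 0.021) was lost without parental B (adjusted p = 0.0811). The galectins went in opposite directions, with LGALS1 at 56.9, 52.9 and 25.3 FPKM in parental cells and 306, 177 and 131 FPKM in PR1, and LGALS9 at 131, 156 and 117 FPKM in parental cells and 14.8, 27.4 and 19.4 FPKM in PR1. LGALS9 reads can be shared with its close copies. SDC2, a cell-surface heparan sulphate proteoglycan, had 0.448, 0.222 and 0.209 FPKM in parental cells, 7.06, 6.55 and 7.02 FPKM in PR1 and 0.0368, 0.0528 and 0 FPKM in PR2. F2R, the thrombin receptor, had 2.18, 2.70 and 2.13 FPKM in parental cells and 11.6, 23.3 and 27.7 FPKM in PR1. NOTCH3 had 13.9, 12.7 and 11.8 FPKM in parental cells and 1.34, 1.89 and 1.57 FPKM in PR1. The combined locus HLA-DRB1,HLA-DRB5, which carries class II beta chains, had 19.7, 33.5 and 21.1 FPKM in parental cells and 0.318, 1.32 and 2.06 FPKM in PR1. None of these genes overlapped between PR1 and parental cells, and neither did 31.6% of all rows.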
